A study of Mus musculus with 20 samples.

Results

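MHC class I molecules display fragments of a cell's own proteins on its surface. The fragments are cut by the proteasome, whose immune form carries inducible catalytic subunits in place of the constitutive ones. They are then pumped into the endoplasmic reticulum by the TAP transporter and are loaded there, with the help of tapasin, onto a heavy chain bound to beta-2-microglobulin. Resting skeletal muscle fibres carry little class I, while leukocytes and endothelium carry more, and interferon raises the whole pathway in many cell types through transcription factors that act on class I promoters.

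The genes followed here were 10 of the 55416 listed in the count table, each matched by its Ensembl identifier to its gene symbol. They were the heavy chains H2-K1 and H2-D1, the light chain B2m, the transporter subunits Tap1 and Tap2, tapasin (Tapbp), the inducible proteasome subunits Psmb8, Psmb9 and Psmb10, and Nlrc5, a transactivator of class I genes. Each of the 10 passed the filter on low counts and was tested, with counts per muscle from 11 to 102 for Psmb9, the least counted, and from 456 to 3050 for B2m. The rule names them by function, and it was written with earlier results of these data known.

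RNA was sequenced from the quadriceps of 20 wild-type male C57BL/6J mice aged 26 to 28 months, 3 h after a single intramuscular injection of 50 µL. The 10 control muscles had received saline (0.9%) and 10 secretome-treated muscles had received a product made from medium conditioned by human pluripotent stem cells. Every mouse was injected and there was no uninjected or young group, so what the needle, the fluid and old age brought was common to both treatments. The counts measured mouse RNA, and human protein brought in by the product was not measured. Library numbers 1 to 10 were controls 1 to 10 and numbers 11 to 20 were secretome 1 to 10.

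Total counts on genes ranged from 13286983 to 22987237 per library, and the group medians were 17016222.5 (control) and 19301561 (secretome). The share of counts on Ttn, the giant sarcomere protein titin, ran from 7.02% to 11.03% in libraries 1 to 5, from 16.4% to 21.1% in libraries 6 to 15 and from 14.2% to 14.7% in libraries 16 to 20. Treatments were therefore also compared within libraries 6 to 15, that is, control 6 to 10 against secretome 1 to 5. Defining fibre transcripts (Ttn, Myh4, Acta1, Ckm) were abundant in every library, as labelled. Control 3 and control 9 stood apart from the other controls in the class I genes themselves. Control 3 did so also in leukocyte transcripts, and control 9 also in the summed constitutive proteasome subunits. Results are given with and without controls 3 and 9. Nothing in the labels named a batch, an extraction day or a cage.

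The promoters of these genes carry short elements by which class I transcription is known to be switched on: an NF-kappaB site, an interferon element, and the X2 and Y boxes read by the complex that Nlrc5 joins. Promoter windows of 8 of the 10 genes were found in the RefSeq table (build GRCm38.p6); Tap2 and Nlrc5 had none there. The 250 bases before the start of H2-K1 (chr17:34000348-34000597, minus strand), H2-D1 (chr17:35262844-35263093, plus strand) and B2m (chr2:122147437-122147686, plus strand), and the 225 bases between the divergent starts of Psmb9 and Tap1 (chr17:34187331-34187555, plus strand, read towards Tap1), are shown because their genes form one functional unit and because Psmb9 and Tap1 share theirs. Capitals mark the motifs found.
H2-K1: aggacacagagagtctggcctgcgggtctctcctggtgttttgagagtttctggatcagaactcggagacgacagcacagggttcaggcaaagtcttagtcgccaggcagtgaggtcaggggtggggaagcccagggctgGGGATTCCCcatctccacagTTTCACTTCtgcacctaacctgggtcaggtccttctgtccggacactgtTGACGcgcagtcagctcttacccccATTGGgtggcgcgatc
H2-D1: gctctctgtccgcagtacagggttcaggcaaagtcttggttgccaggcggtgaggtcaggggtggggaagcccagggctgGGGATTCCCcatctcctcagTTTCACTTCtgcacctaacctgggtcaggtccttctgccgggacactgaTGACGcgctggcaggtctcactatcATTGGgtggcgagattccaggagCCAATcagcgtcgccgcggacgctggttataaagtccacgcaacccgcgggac
B2m: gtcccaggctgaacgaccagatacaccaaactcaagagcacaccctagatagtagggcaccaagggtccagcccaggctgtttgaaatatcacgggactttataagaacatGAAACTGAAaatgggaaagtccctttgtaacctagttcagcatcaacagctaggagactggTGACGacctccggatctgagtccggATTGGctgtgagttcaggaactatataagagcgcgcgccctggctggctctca
Psmb9-Tap1: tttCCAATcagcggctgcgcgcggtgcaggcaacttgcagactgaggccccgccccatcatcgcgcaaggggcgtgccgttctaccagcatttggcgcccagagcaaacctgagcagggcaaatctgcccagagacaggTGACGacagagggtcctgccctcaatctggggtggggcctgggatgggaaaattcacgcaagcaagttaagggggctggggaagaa

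H2-K1 and H2-D1 shared much of their upstream sequence, with 47 bases in a row in common, but at different distances from the start. GGGATTCCC began 110 bases before the start in H2-K1 and 170 in H2-D1. The table held 2 windows for H2-K1, and the first listed was used. Both promoters held GGGATTCCC, the NF-kappaB site of class I promoters, found in 0.301% of the same 250 bases of all 32851 windows in the table. Both also held TTTCACTTC, part of the interferon element of class I promoters, found in 0.402% of windows. B2m held neither, but had GAAANNGAA, an interferon-stimulated response element (7.13% of windows), and, on the other strand and left in lower case, GGGANTTTC, an NF-kappaB core (0.941%). TGACG, the core of the X2 box, was found in 5 of the 8 promoters and in 17.8% of all windows. The Y box CCAAT or its complement ATTGG was found in 6 of 8 and in 33.8%. The TGACG of Psmb9 is also that of Tap1, and so is the Y box, so each of these sites was counted for both genes. In H2-K1, H2-D1 and B2m, TGACG was followed by ATTGG 25 bases later, start to start, an arrangement held by 18 of the 32851 windows (0.0548%). That spacing was taken from these same promoters, which are among the 18, so their holding it is no test. It was searched in this order on the given strand only. TTCNNNGAA was found in Psmb8 alone among the 8 and in 7.02% of windows. Single motifs were searched on both strands, and none of the matches named here overlapped another in the same promoter. The letters searched were chosen with the sequences of these promoters in view. These are matches of letters, and no binding was measured here.

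To ask whether secretome changed the class I pathway in the injected muscle, each gene was compared between treatments with edgeR's quasi-likelihood F-test across 14471 genes. All 10 genes were lower on average after secretome, with log2 fold changes from -1.22 to -0.46 and a median of -0.67, against a median of -0.03 and a share of 55.9% below 0 over all genes tested. None of the 10 passed the 5% false discovery rate, which 0.00691% of all genes did, namely Plxnb2 alone, a semaphorin receptor with a log2 fold change of -0.53. At an unadjusted p under 0.05 there were 8 of the 10 genes, all lower, where 15.7% of all genes tested had such a p in either direction and 9.21% had it while lower. Adjusted p-values of the 10 genes ran from 0.124 to 0.358. With DESeq2, 2 of the 10 passed the false discovery rate, Psmb8 and Psmb9, as did 1.25% of the genes to which it gave an adjusted p.

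Much of the difference lay in controls 3 and 9. Control 3 was above every secretome-treated muscle in all 10 genes, and control 9 in 9 of them, B2m being the exception. The 2 muscles were the highest pair of all 20 in 7 genes. Without control 3, the 10 genes were still lower (54.8% of all genes), with a median log2 fold change of -0.45, and 7 had an unadjusted p under 0.05 (11.3% of all genes). Without control 9, all 10 were lower (55.4% of all genes), the median was -0.56, and again 7 had such a p (14.4%). When both were left out, a choice made after the values were seen, the median was -0.28, all 10 stayed below 0 (54.4% of all genes) and 4 had an unadjusted p under 0.05 (9.77% of all genes): Psmb8, Psmb9, Tap2 and Tapbp. None of the 10 passed the false discovery rate in these 3 sets, where 0.0138%, 0% and 0% of all genes did.

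**Figure D1:**
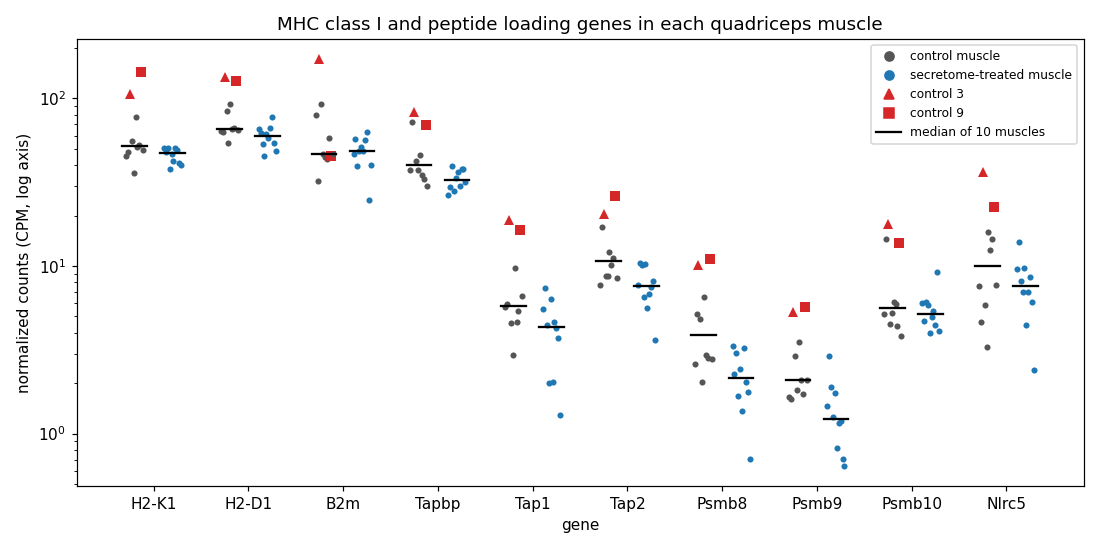
Normalized counts (CPM, vertical, log axis) of the 10 genes in each of the 10 control (grey) and 10 secretome-treated (blue) muscles, with control 3 (red triangle) and control 9 (red square) marked and medians as black bars. Controls 3 and 9 sit above the secretome-treated muscles in every gene except B2m, where control 9 lies at the control median, and in no gene are the 2 groups fully apart, as they were, with secretome lower, in 0.0138% of all genes tested.

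Within libraries 6 to 15, 9 of the 10 genes were lower after secretome (52.1% of all genes), with a median log2 fold change of -0.58, and 4 had an unadjusted p under 0.05 (9.95% of all genes): H2-D1, Psmb8, H2-K1 and Nlrc5. None passed the false discovery rate in that range (0% of all 14469 genes tested there, by edgeR). That range holds control 9, and without it 8 genes were lower (49.9% of all genes), with a median of -0.30 and 2 with an unadjusted p under 0.05 (8.54%). Between libraries 1 to 5 and 16 to 20 all 10 were lower (55.8% of all genes), with a median of -0.92 and 6 with such a p (16.1% of all genes), but there the treatments differed in library range and in the share of Ttn as well. Tested directly, the 2 effects differed with an unadjusted p under 0.05 in 0 of the 10 genes (11.1% of all genes) by the quasi-likelihood test, the smallest being that of B2m.

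Levels below are in CPM, counts scaled to a common library total with TMM factors. Levels were also scaled per kilobase of exon, with the exons of all annotated transcripts joined. Control means then ran from 76.9 CPM per kilobase for B2m through 31.7 for H2-D1 to 22.7 for H2-K1. They were 13.4 for Tapbp, 4.77 for Psmb10 and 3.46 for Tap2. Nlrc5 (1.54), Psmb8 (1.51) and Tap1 (1.47) lay within their spread of each other, and Psmb9 was lowest on this scale at 0.775. The joined exons spanned 860 bases for B2m, as did its longest coding transcript. For Psmb9 they spanned 3660 bases against 1352, and for H2-K1 2938 against 1619. The order of genes of like level, and which gene was lowest, therefore depended on the length used. The light chain and both classical heavy chains were thus the best counted of the 10, and the inducible subunits Psmb8 and Psmb9, with the largest fold changes, were among the least.

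The heavy chain H2-K1, which binds the peptide, ranged in control muscle from 35.9 to 143 CPM with a median of 52.1, and in secretome-treated muscle from 37.7 to 50.8 with a median of 47.3. All 10 secretome-treated muscles were below the control median, as they were in 3.39% of all genes tested. Yet the lowest control lay below every one of them, so that the groups overlapped. Means were 66.6 ± 33.7 CPM in control and 45.7 ± 4.87 CPM in secretome-treated muscle (SD, n = 10 each), a log2 fold change of -0.54 (SE 0.195, adjusted p = 0.205, edgeR). Control 9 (143 CPM) and control 3 (107 CPM) were the highest of all 20, and without both the log2 fold change was -0.18. The spread among secretome-treated muscles was much smaller than that among controls.

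H2-D1, the other classical heavy chain of this strain, ran closely with H2-K1 among control muscles (r = 0.96) and less closely among secretome-treated muscles (r = 0.76). Its levels ranged from 54.1 to 134 CPM (median 65.8) in control and from 45.6 to 77.1 CPM (median 59.6) in secretome-treated muscle. The ranges overlapped, with 3 secretome-treated muscles below every control and 4 controls above every secretome-treated muscle. The log2 fold change was -0.46 (SE 0.153, adjusted p = 0.180, edgeR), -0.52 within libraries 6 to 15 (-0.32 there without control 9) and -0.23 without controls 3 and 9. In the GENCODE transcripts used here, 1.79% of H2-D1's stretches of 150 bases also occur in H2-Q1, a related heavy chain, and none of those of the other 9 genes occur in another gene.

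B2m is the light chain that class I heavy chains need at the surface. Its levels ranged from 32.3 to 172 CPM (median 46.6) in control and from 24.6 to 62.8 CPM (median 48.5) in secretome-treated muscle. Here only 3 of the 10 secretome-treated muscles were below the control median, and the highest controls were control 3 (172 CPM), control 4 (92.9 CPM) and control 1 (79.4 CPM). It had a log2 fold change of -0.47 (SE 0.249, adjusted p = 0.358, edgeR) over all muscles and -0.19 without control 3.

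Within libraries 6 to 15, the treatments lay within each other's spread for B2m, at 47.7 ± 6.09 CPM in control and 48.6 ± 6.40 CPM in secretome-treated muscle (SD, n = 5 each). The log2 fold change there was 0.04, with a 95% interval from -0.19 to 0.27, whereas between libraries 1 to 5 and 16 to 20 it was -0.85. The difference between the 2 effects was 0.89 on the log2 scale (SE 0.445, p = 0.0599 unadjusted and 0.477 adjusted, edgeR). Control 9, the highest muscle in H2-K1, had 45.2 CPM of B2m, 0.970 times the median of the other controls, against 2.78 times for H2-K1.

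**Figure D2:**
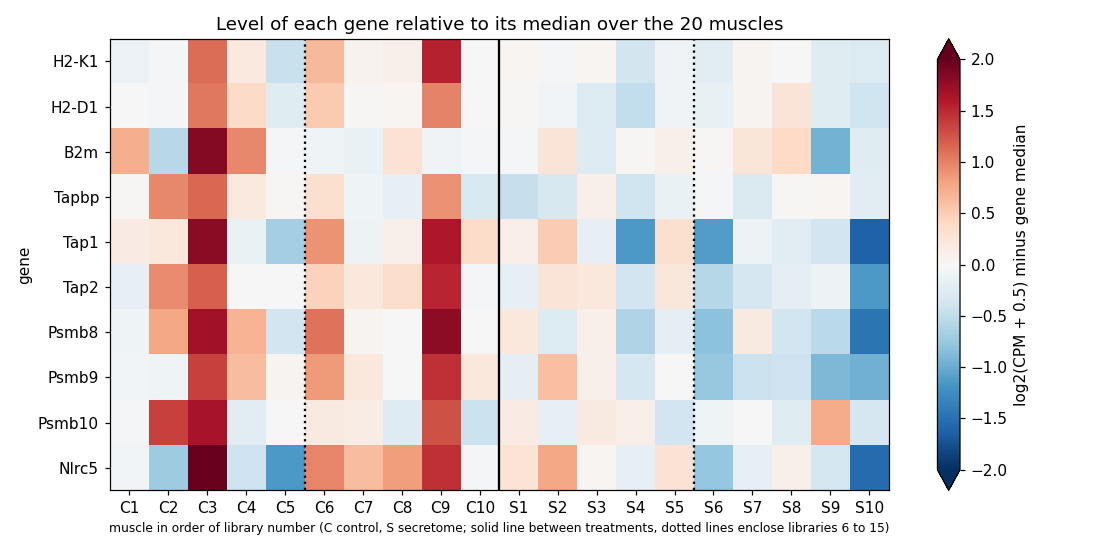
Colour gives each gene's log2(CPM + 0.5) minus its median over the 20 muscles (red higher, blue lower, colour scale from -2 to 2), with genes as rows and muscles as columns in order of library number. The columns of control 3 and control 9 are red in nearly every row except B2m for control 9, and secretome 10 is blue in all 10 rows.

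Tapbp, which holds the empty heavy chain at the transporter, ranged from 29.9 to 82.6 CPM (median 40.0) in control and from 26.7 to 39.5 CPM (median 32.8) in secretome-treated muscle. All secretome-treated muscles were below the control median, while 5 controls lay above every secretome-treated muscle. Means were 48.7 ± 19.03 and 33.2 ± 4.60 CPM (SD, n = 10 each), with a log2 fold change of -0.55 (SE 0.168, adjusted p = 0.158, edgeR). It was -0.44 without control 3, -0.43 within libraries 6 to 15 (-0.18 there without control 9) and -0.33 without controls 3 and 9. The highest controls were control 3 (82.6 CPM), control 2 (72.8 CPM) and control 9 (69.9 CPM).

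The transporter subunits Tap1 and Tap2, which together form the peptide pump, were both lower after secretome. Tap1 ranged from 2.95 to 18.7 CPM (median 5.78) in control and from 1.29 to 7.36 CPM (median 4.34) in secretome-treated muscle. Here 3 controls lay above every secretome-treated muscle, and 3 secretome-treated muscles below every control. Between treatments the log2 fold change was -0.95 (SE 0.339, adjusted p = 0.205, edgeR), -0.72 within libraries 6 to 15 (-0.35 there without control 9) and -0.45 without controls 3 and 9.

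Tap2 ranged from 7.69 to 26.0 CPM (median 10.7) in control and from 3.63 to 10.4 CPM (median 7.62) in secretome-treated muscle. All 10 secretome-treated muscles were below the control median and 5 of them were below every control. The difference was a log2 fold change of -0.77 (SE 0.225, adjusted p = 0.153, edgeR), and it was -0.58 within libraries 6 to 15 (-0.21 there without control 9) and -0.45 without controls 3 and 9. Exons of Tap1 overlap those of Psmb9 on the opposite strand, and exons of Tap2, Psmb8, Tapbp and Nlrc5 overlap antisense genes. Tapbp also overlaps Zbtb22 on the same strand, where strand cannot separate the reads. Libraries were made to keep the strand, but whether the counting used it is not given in the sources used here.

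Of the inducible proteasome subunits, Psmb8 and Psmb9 had the lowest fold changes of the 10 genes over all libraries. Psmb8, which replaces Psmb5 in the immunoproteasome, ranged from 2.04 to 10.99 CPM (median 3.90) in control and from 0.703 to 3.34 CPM (median 2.14) in secretome-treated muscle. All 10 secretome-treated muscles were below the control median, 5 of them below every control, and 5 controls were above every secretome-treated muscle. The log2 fold change was -1.22 (SE 0.314, adjusted p = 0.124, edgeR), -1.05 without control 3, -1.02 within libraries 6 to 15 (-0.56 there without control 9) and -0.77 without controls 3 and 9. With DESeq2 its adjusted p was 0.0173. The levels rest on 12 to 198 counts per muscle.

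Psmb9, which replaces Psmb6, ranged from 1.62 to 5.66 CPM (median 2.09) in control and from 0.644 to 2.90 CPM (median 1.21) in secretome-treated muscle. Of the secretome-treated muscles, 7 were below every control, and secretome 2 (2.90 CPM) was the highest of its group. It had a log2 fold change of -1.04 (SE 0.293, adjusted p = 0.148, edgeR) over all muscles. It was -0.69 within libraries 6 to 15 (-0.34 there without control 9), -1.54 between the outer library ranges and -0.66 without controls 3 and 9. DESeq2 gave it an adjusted p of 0.0452.

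Psmb10, which replaces Psmb7, differed least of these subunits. It ranged from 3.83 to 17.8 CPM (median 5.62) in control and from 3.99 to 9.23 CPM (median 5.19) in secretome-treated muscle. The groups largely overlapped: 3 controls (control 3, 2 and 9) were above every secretome-treated muscle, and no secretome-treated muscle was below every control. Between treatments the log2 fold change was -0.57 (SE 0.271, adjusted p = 0.313, edgeR), and only -0.18 without controls 3 and 9.

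The constitutive subunits that these replace had fold changes nearer to none. Over all libraries, log2 fold changes were -0.16 for Psmb5, -0.25 for Psmb6 and 0.03 for Psmb7. By the quasi-likelihood test 0 of the 3 had an unadjusted p under 0.05 (15.7% of all genes). None passed the false discovery rate (0.00691% of all genes). Within libraries 6 to 15 all 3 were lower (52.1% of all genes), with a median log2 fold change of -0.24. Scaled to exon length, Psmb8 stood at 2.26% ± 1.06 of Psmb5 in control and at 1.08% ± 0.397 in secretome-treated muscle (SD, n = 10 each). In control muscle it ranged from 1.344% to 4.72% (median 1.75%) and in secretome-treated muscle from 0.383% to 1.70% (median 1.11%). Within libraries 6 to 15 the same ratio was 2.03% ± 0.518 for control and 1.30% ± 0.243 for secretome-treated muscle (SD, n = 5 each).

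Psmb9 stood at 1.62% ± 0.639 of Psmb6 in control and at 0.956% ± 0.495 in secretome-treated muscle. For Psmb10 over Psmb7 the values were 13.9% ± 9.65 and 8.92% ± 2.14 (SD, n = 10 each), and the ranges of 6.50% to 31.8% in control and 6.98% to 13.9% in secretome-treated muscle overlapped almost wholly. In both groups Psmb8 and Psmb9 thus stood at a few percent or less of their partners, and Psmb10 at more. The ratios are given as values, with no test. They rest on the joined exon lengths, such as 3381 bases for Psmb8 against 899 for Psmb5, and would differ with other lengths.

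Nlrc5, the transactivator of class I genes, ranged from 3.29 to 36.5 CPM (median 10.0) in control and from 2.40 to 13.9 CPM (median 7.59) in secretome-treated muscle. The ranges overlapped broadly, with secretome 10 lowest and 4 controls above every secretome-treated muscle. The difference was a log2 fold change of -0.77 (SE 0.372, adjusted p = 0.321, edgeR), -0.45 without control 3, -0.58 within libraries 6 to 15 (-0.37 there without control 9) and -0.23 without controls 3 and 9. Its spread among controls, 13.1 ± 10.2 CPM (SD, n = 10), was the widest of the 10 genes relative to the mean, and control 3 alone stood at 4.77 times the median of the other controls.

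**Figure D3:**
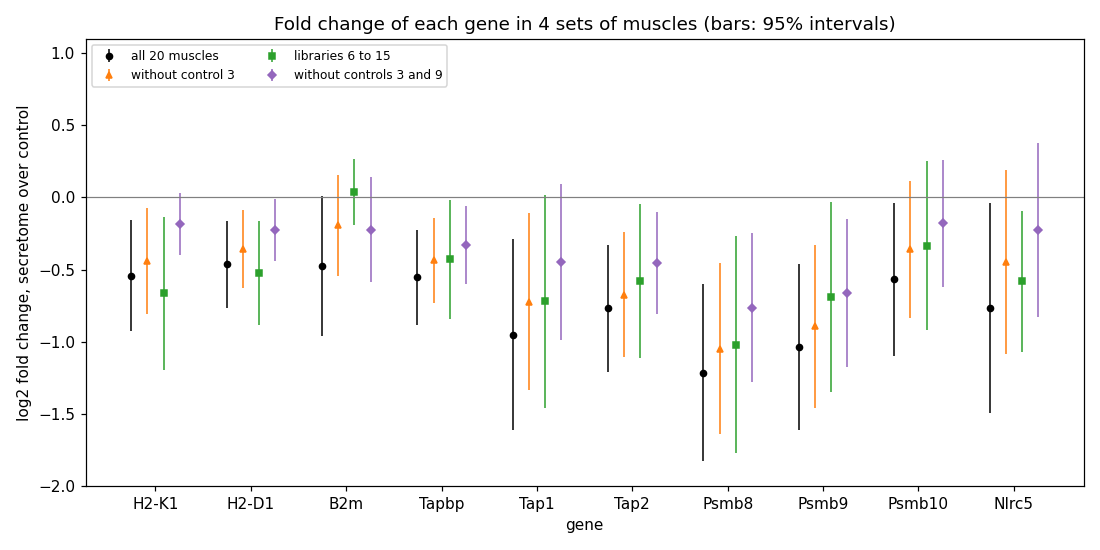
Log2 fold change of secretome over control (vertical) for each of the 10 genes over all 20 muscles (black), without control 3 (orange), within libraries 6 to 15 (green) and without controls 3 and 9 (purple), with bars of 95% intervals. The bars use the normal quantile and are narrower than the F-test allows. Some exclude 0 where the unadjusted p was over 0.05. An example is Tap2 within libraries 6 to 15 (-1.12 to -0.04, p = 0.0549, edgeR). Psmb8 and Psmb9 lie lowest in all 4 sets except within libraries 6 to 15, where Tap1 (-0.72) lies below Psmb9 (-0.69), and leaving out both controls brings the median from -0.67 to -0.28.

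How far the 10 genes moved together was read from the correlations of their log2 CPM across muscles of the same treatment, 45 pairs in each group and 90 in all. Controls 3 and 9 stood apart, and over the other 8 controls the median Pearson r was 0.29, against 0.75 with both included. H2-K1 with H2-D1 was close with and without them, at r = 0.96 (rho 0.98) over all controls and 0.93 without both. Over all controls the adjusted permutation p was 0.00349 for r and 0.00360 for rho (n = 10). After secretome the pair had r = 0.76 (rho 0.70), with an adjusted permutation p of 0.0297 for r and 0.101 for rho. That r was 0.47 without the 2 muscles farthest from the median of H2-K1. Among secretome-treated muscles the median r was 0.37, and 12 of the 45 pairs had an adjusted p under 0.05 by permutation for r, but 5 for rho. Tap2 with Nlrc5 had the highest r there, 0.91 (rho 0.82), with an adjusted permutation p of 0.00468 for r and 0.0441 for rho (n = 10). Its r was 0.71 without the 2 muscles farthest from the median of Tap2. Tap1 with Nlrc5 had r = 0.90 and a higher rho of 0.92, with an adjusted permutation p of 0.00349 for r and 0.0211 for rho. Its r was 0.95 without the 2 muscles farthest from the median of Tap1.

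B2m had an adjusted p under 0.05 with no partner in either group. Its median r with the other 9 genes was 0.26 after secretome, 0.30 in control and -0.12 in control without controls 3 and 9. Tapbp (median r -0.06) and Psmb10 (0.05) also had 0 such pairs among secretome-treated muscles, with lower medians than B2m. B2m and Psmb10 gave the lowest r of the secretome-treated group, -0.74 (rho -0.61; adjusted permutation p = 0.0555 for r and 0.159 for rho, n = 10), which was -0.13 without the 2 muscles farthest from the median of B2m and so rested on them.

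Outside these 10, the genes whose log2 CPM ran most like their mean across the 20 muscles were Neurl3 (r = 0.93), H2-T23 (0.93), H2-Q4 (0.92) and Bst2 (0.89), of 13162 genes with a mean of at least 1 CPM. Neurl3 encodes a ubiquitin ligase, H2-T23 and H2-Q4 are nonclassical heavy chains and Bst2 encodes tetherin. Without controls 3 and 9 these r were 0.87, 0.85, 0.88 and 0.76. They are descriptions, since the points share libraries and depth and the genes were picked for them.

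Of 19 other class I heavy chains and related genes, 13 were counted well enough to test, and 12 of these were lower and 1, Mr1, was higher (log2 fold change 0.22). At an unadjusted p under 0.05 there were 9 lower and 0 higher (9.21% of all genes tested were lower at that p), none passed the false discovery rate, and the median log2 fold change was -0.57. H2-Q7 was at 3.75 ± 1.76 CPM in control and 1.69 ± 0.613 CPM in secretome-treated muscle (log2 fold change -1.15, adjusted p = 0.109, edgeR), and H2-T23 at 10.0 ± 5.36 and 5.11 ± 1.38 CPM (-0.97, adjusted p = 0.110). Within libraries 6 to 15 the median was -0.44 and 3 of the 13 had such a p (9.95% of all genes in either direction).

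The general machinery around the loading step had a median fold change near none. Of 15 chaperones, trimming peptidases and proteasome activators tested, 2 were lower and 2 higher at an unadjusted p under 0.05. Over all genes 15.7% had such a p in either direction. None of the 15 passed the false discovery rate, and their median log2 fold change was -0.0028. The smallest p were those of Tapbpl, the tapasin-related peptide editor (log2 fold change -0.42, adjusted p = 0.250, edgeR), and Psme2, a subunit of the interferon-inducible proteasome activator (-0.37, adjusted p = 0.262).

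Upstream of the class I genes, 11 of 16 transcription factors were lower (55.9% of all genes), with a median log2 fold change of -0.10. None passed the false discovery rate. Over all libraries 1 was higher and 1 lower with an unadjusted p under 0.05 (15.7% of all genes in either direction). Within libraries 6 to 15 these were 0 and 2 (9.95%). Nfyb (0.21), a subunit of the factor that binds the Y box, was the higher one. Among interferon ligands, receptors and kinases 9 of 11 could be tested, 2 of them lower and 1 higher at that p (15.7% of all genes). The smallest p belonged to Ifnar2, a chain of the type I interferon receptor (-0.47), and Jak2, a kinase of the interferon-gamma receptor (0.30). The interferon genes Ifng and Ifnb1 were too low to test.

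Class II genes, which present peptides taken up from outside and mark antigen-presenting cells, had the lowest median of the pathway lists. All 8 of the 10 listed that could be tested were lower at an unadjusted p under 0.05 (9.21% of all genes), with a median log2 fold change of -1.18, and none passed the false discovery rate. The smallest p were those of Ciita, their master transactivator (-1.17, adjusted p = 0.150, edgeR), and H2-DMb1, a chain of the class II peptide editor (-0.99, adjusted p = 0.151). Within libraries 6 to 15 the median was -1.06, with 7 of 8 at such a p (9.95% of all genes in either direction). A further list held 14 receptors of T, NK and myeloid cells that read class I or are relatives of such receptors. Of these, 2 were counted well enough to test, Pirb (-0.39) and its relative Lilrb4a (0.48), neither with a p under 0.05.

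**Figure D4:**
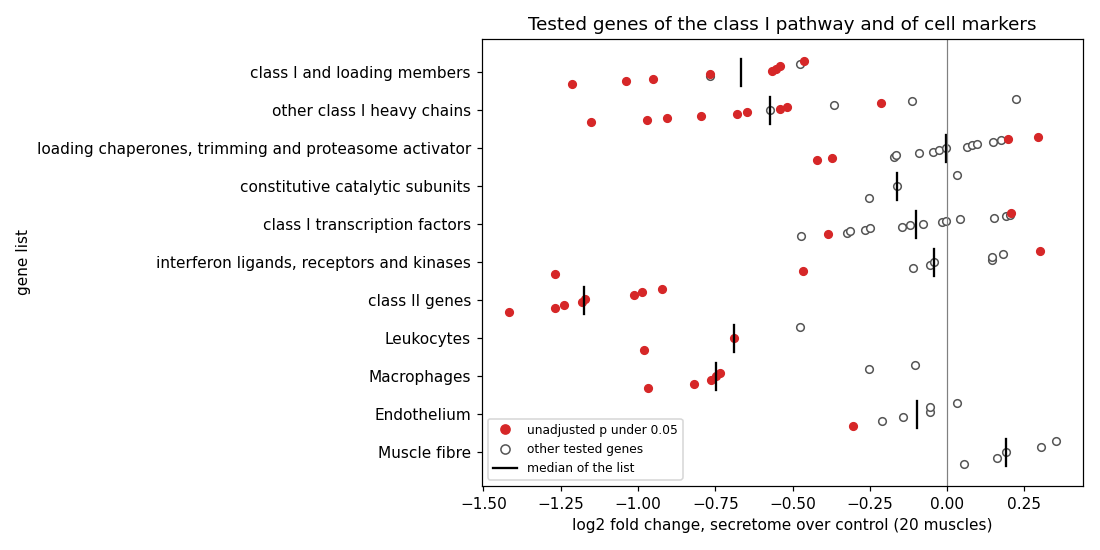
Log2 fold change of secretome over control over 20 muscles (horizontal) for the tested genes of each list, one point per gene, filled red where the unadjusted p was under 0.05, with the list median as a black bar. Class I (median -0.67), other heavy chains (-0.57) and class II genes (-1.18) lie left of 0, as do leukocyte and macrophage markers, while chaperones and trimming genes (-0.0028) centre on 0.

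Markers of leukocytes were lower alongside the class I genes. All 3 general leukocyte markers were lower (2 with an unadjusted p under 0.05) and so were all 7 macrophage markers (5 with such a p), with medians of -0.69 and -0.75, and none passed the false discovery rate. Over all genes 55.9% were lower, and 9.21% were lower at such a p. The medians were -0.91 and -0.95 within libraries 6 to 15. Ptprc and Laptm5 were the most abundant of the first list and Mrc1 and Csf1r of the second. Summed leukocyte markers ranged from 16.5 to 70.1 CPM in control and from 9.43 to 54.7 CPM in secretome-treated muscle, and macrophage markers from 40.5 to 139 and from 32.7 to 103 CPM. In a bulk muscle, fewer cells of a type and less RNA per cell cannot be told apart.

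Muscle by muscle, the 10 class I genes summed to 198 to 315 CPM in the other 8 controls, to 604 CPM in control 3 and 482 CPM in control 9, and to between 174 and 255 CPM in secretome-treated muscle. Control 3 was also the highest control in leukocyte (70.1 CPM), neutrophil (97.1 CPM), T cell (7.54 CPM) and dendritic cell markers (25.4 CPM). Control 9 was the next highest in leukocyte (42.9 CPM) and dendritic cell markers (25.3 CPM), but the lowest control in B cell markers (77.1 CPM). It also had the highest sum of the constitutive proteasome subunits, 445 CPM. That sum was 266 CPM in control 3 and 208 to 317 CPM in the other 8 controls. In macrophage markers control 4 was highest (139 CPM, against 136 CPM in control 3). Control 6 was highest in NK cell (1.81 CPM) and B cell markers (580 CPM). Secretome 8 had leukocyte (54.7 CPM) and neutrophil markers (103 CPM) that were the highest of its group, and its class I genes summed to 255 CPM, the highest sum among secretome-treated muscles and below the control median of 261 CPM. The part of leukocytes in the class I values was not tested.

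T cell and NK cell markers were near 0, with at most 31 and 21 counts for any gene in any library, and none of their 13 genes could be tested. Their summed levels were 0.116 to 7.54 CPM (T cells) and 0.186 to 1.81 CPM (NK cells) in control, and 0 to 1.37 and 0.0540 to 0.911 CPM in secretome-treated muscle. Cd4 and Klrk1 were the most abundant. Of the B cell markers, Ighm and Jchain, both immunoglobulin genes, were tested and lower (-0.98 and -2.96). Both had an unadjusted p under 0.05 (9.21% of all genes were lower at such a p), and neither passed the false discovery rate. Within libraries 6 to 15 both were lower and 1 had such a p (9.95% of all genes in either direction). Summed levels were 77.1 to 580 CPM in control and 46.7 to 201 CPM in secretome-treated muscle. The defining B cell genes Cd79a, Cd79b and Ms4a1 were too low to test.

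Neutrophil markers gave 0 of 4 at an unadjusted p under 0.05 (15.7% of all genes in either direction). Their sums ranged from 4.48 to 97.1 CPM in control and from 4.12 to 103 CPM in secretome-treated muscle. Without control 3, all 4 neutrophil markers were higher, 2 at such a p (11.3% of all genes in either direction). Dendritic cell markers summed to 13.1 to 25.4 and 11.5 to 21.6 CPM, and 1 of 2 tested, Itgax (-1.35), had such a p (15.7% of all genes). The other, Zbtb46, went the other way over all libraries, without such a p. Zbtb46 was the most abundant of this list, so the sums follow it more than Itgax. Endothelial markers, of cells that themselves carry class I, summed to 136 to 252 CPM in control and 133 to 203 CPM after secretome. Of these, 5 of 6 were lower (55.9% of all genes), and 1 was lower at such a p, Vwf (-0.31), as were 9.21% of all genes. Fibroblast markers were lower in 5 of 5 (55.9% of all genes) and muscle fibre markers higher in 5 of 5. In either list 0 had such a p (15.7% of all genes), and none passed the false discovery rate. Fibroblast markers were lower in 4 of 5 within libraries 6 to 15, and muscle fibre markers were there higher in 2 and lower in 3.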

How the data were processed

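The authors isolated total RNA from quadriceps, depleted ribosomal RNA, made directional libraries and sequenced them as pairs of 150 bases; mice had been fasted for 4 h. The deposited values are whole-number counts per gene, not normalized, 1 column per mouse. The submitters' processing notes name cutadapt 1.16, STAR 2.7.9a, featureCounts 1.6.3, DESeq2 1.34.0 and the builds GRCm39 and mm39; settings for strand and for reads with several matches are not given in the sources used here. The labels' extraction text speaks of myotubes, while the source is quadriceps. Groups came from the labels. Counting error follows from 13286983 to 22987237 counts per library. No columns were identical. Each library carries its own number in the labels, and p-values measure the spread between these libraries.

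Genes were filtered with filterByExpr by group (14471 of 55416 kept), scaled by TMM and tested with the robust quasi-likelihood F-test of edgeR 4.0.16 (limma 3.58.1, R 4.3.3), in a model of treatment alone, with p-values adjusted by Benjamini-Hochberg over all genes at a 5% false discovery rate. Each standard error is the fitted log2 value divided by the square root of its F. The 95% intervals use the normal quantile, so they are narrower than the F-test allows and do not replace its p-values. The same test was fitted within libraries 6 to 15, without control 3, and for the difference of the effects between library ranges. Correlations used 100000 permutations (scipy 1.17.1) and were chosen after the data were seen. Exon lengths, overlaps and transcript sequences came from GENCODE annotation of another build than the authors' and served for scaling and names only. Motifs were searched in RefSeq promoter windows (250 bases before and 50 after the start).

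On simulated counts with 200 of 14471 genes changed 2-fold, 161 were recovered with 10 muscles against 10 (6 false calls) and 114 with 5 against 5 (5 false calls). The simulated counts held no shift between library ranges and no muscles standing apart across genes. The recovery need not hold for the 10 members, most of which had smaller fitted changes. Named genes were the 10 members of the pathway, of each list the genes with the 2 smallest p in the comparison of all libraries, the 3 constitutive subunits, and the genes most correlated with the members' mean centred log2 CPM; of the marker lists also the 2 most abundant genes. Plxnb2, the B cell, dendritic and endothelial genes and the T cell and interferon genes too low to test were chosen after their values were seen. The members and the lists were chosen with earlier results of these data known. Alternatives were DESeq2 1.42.0, RLE scaling, no filter, a replicate block, voom with quality weights, a library range term, leaving out each muscle, other CPM scalings and, added after the data were seen, leaving out controls 3 and 9 together. Some genes that this rule names are not reported here.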

Additional observations from a re-analysis of the deposited data

Results flagged for a closer look

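In secretome 9, B2m was lower than in any other muscle of its group by a gap that is large for the group's range (Dixon's test at its 95% critical value for 10 samples, 0.466). Its log2 CPM was 4.63, or 24.6 CPM, and the next lowest secretome-treated muscle had 39.5 CPM. In the same muscle Psmb10 stood out in the other direction, at a log2 CPM of 3.22, or 9.23 CPM, where the next highest had 6.13 CPM. These were 2 flags among 20 gene and group combinations, and chance alone gives about 1. The other 8 genes of secretome 9 were not flagged, and controls 3 and 9, standing apart together, were not flagged in any gene.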

How the results depend on the processing

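All 10 genes stayed below 0 over all libraries with DESeq2, RLE scaling, no filter on low counts, the replicate block, voom with quality weights, a library range term and each of the 20 muscles left out. None of the 10 passed the false discovery rate under these except with DESeq2, where 2 did (Psmb8 and Psmb9). Over all genes, the count past it was 1 with edgeR, 216 with DESeq2, 3 with voom with quality weights, 0 with the replicate block and 0 without controls 3 and 9; leaving out one muscle gave 0 to 15. The cause of the DESeq2 difference was not tested. The median log2 fold change of the 10 genes was -0.37 with voom with quality weights and -0.53 with the replicate block. Within libraries 6 to 15, leaving out one muscle gave -0.021 (without secretome 2) to 0.12 (without control 8) for B2m and -0.48 (without control 10) to 0.079 (without control 9) for Psmb10, so that both changed sign; the other 8 genes stayed below 0. Scaling on totals without Ttn moved the mean CPM of H2-K1, H2-D1 and Tapbp in secretome-treated muscle to 53.0, 68.7 and 38.3, and all 10 genes kept the lower mean. Replicate numbers gave no sign of pairing the muscles: correlations of same-numbered muscles ran from -0.24 to 0.22, with 2 of 10 over 0.1. The block called 0 genes, against 1 with edgeR without it, and such counts cannot decide whether muscles were paired. No paired analysis was possible within libraries 6 to 15 because the groups share no replicate number. At 11 to 102 counts per muscle, Psmb9 is limited by depth the most.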
